A study of Bos taurus with 6 samples.

Results

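Of 24016 probe sets on the array, 101 (0.421%) reached a log2 expression value of 5 in at least 2 of 3 pools of blastocysts and stayed under 5 in all 3 pools of late degenerative embryos. A probe set is the group of short oligonucleotides that measures 1 transcript on the Affymetrix Bovine Genome Array, and control probe sets were left out of these counts. The same rule with the groups exchanged found 179 probe sets (0.745%). Of the 101 members, 52 carried a single gene symbol (51.5%, against 55.3% of all probe sets) and 49 carried none. The rule sets aside SLC10A1, CYP3A28, HMGCS1, TP53I3, TGM1 and MCF2L, and the other 46 members with a symbol, each from a different gene, are described here by function. PTPRK, which the rule also sets aside, did not meet it in any case, since its 2 probe sets reached 7.20 and 7.23 in the highest degenerative pool.

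The arrays were hybridized with RNA from bovine embryos produced by in vitro fertilization of oocytes from the ovaries of mature cows. Late degenerative embryos had compacted by day 5 of culture but showed no proper passage from morula to blastocyst by day 8. Blastocysts came from morulae that compacted by the same day and showed a blastocoele and a clear inner cell mass on day 8. Each group was measured in 3 pools, A, B and C, of 20 embryos, with 1 array a pool, with no treatment or altered allele in the labels, so a value belongs to a mixture of embryos and of cell types. Fewer cells of a type and less RNA per cell cannot be told apart in such pools. The poly(A) RNA was amplified linearly from an oligo(dT) primer before labeling.

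Between the morula and the blastocyst the outer cells of the embryo become the trophectoderm, an epithelium that seals its junctions and pumps ions and water inward to form the blastocoele. The inner cells become the inner cell mass, from which the epiblast and the hypoblast arise. In cattle the trophectoderm also makes interferon tau, prostaglandins and steroid-metabolizing enzymes, and the embryo builds much of its own cholesterol.

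The tissue labels were set against marker genes of the embryo and of other cells, with 1 probe set a gene. All 12 tested trophectoderm markers were at or above 5 in at least 2 pools of both groups, with a summed level on the linear scale of 73097 to 81480 in degenerative pools, against 93057 to 118805 in blastocyst pools. Of these markers 10 were lower in degenerative embryos and 2 higher, with a median difference of -0.73. None passed the limma fit over all probe sets, and 4 had an unadjusted p under 0.05. TFAP2A, a regulator of that lineage, had 4.78, 6.98 and 6.47 in degenerative pools A, B and C, against 9.26, 8.96 and 8.70 in blastocyst pools A, B and C. PAG2, a pregnancy-associated glycoprotein, had 8.83, 11.77 and 11.37 in degenerative pools, against 13.04, 12.97 and 13.17 in blastocyst pools. KRT18, a keratin of epithelia, was close in both groups, at 15.52, 15.37 and 15.17 in degenerative pools, against 15.65, 15.34 and 15.26 in blastocyst pools. The part of these markers in the values of the members was not tested. CDX2, GATA3, GATA2 and TFAP2C, 4 defining regulators of that lineage, were not measured here. Of 12 markers of the inner cell mass and epiblast only 3 were tested, without NANOG. All 3 were higher in degenerative embryos on average, with a median difference of 0.51. Among them POU5F1, a factor of pluripotent cells, lay between 12.65 and 13.32 in degenerative embryos and between 12.34 and 12.60 in blastocysts. Of 7 tested hypoblast markers 2 were lower and 5 higher in degenerative embryos, with a median difference of 0.15. None in these 2 lists passed limma. Of 9 tested markers of cumulus and granulosa cells, FSHR, LHCGR and INHA were under 5 in all pools. At the level in at least 2 pools were 4 markers in degenerative embryos and 4 in blastocysts, not the same 4. PTX3 was among them in degenerative embryos only, and TNFAIP6, a member, in blastocysts only. HAS2, hyaluronan synthase, was among them in both groups, at 9.92 to 11.80 in degenerative pools, against 10.00 to 10.82 in blastocyst pools. INHBA, an activin subunit, had 8.70, 9.03 and 7.84 in degenerative pools, against 3.71, 6.64 and 7.68 in blastocyst pools. Hemoglobin gene HBB, of the blood list, had 8.31, 10.12 and 7.76 in degenerative pools, against 3.95, 5.43 and 7.44 in blastocyst pools, while CD3E and CD14 of that list were under 5 in all pools. INHBA and HBB were thus higher in degenerative embryos, but the cumulus list had no single direction. It had 5 genes higher, with PTX3 (3.02) the furthest, and 4 lower, with CYP19A1 (-2.08) the furthest. The part of such cells in the values of the members was not tested. All 6 tested oocyte genes were higher in degenerative embryos on average, with a summed level on the linear scale of 53.3 to 187 in degenerative pools, against 35.4 to 43.4 in blastocyst pools, and none was at 5 in more than 1 pool of either group.

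The values that chose the members are 3 pools below the level and 2 or 3 at or above it, and most members lay close to it. The highest degenerative pool was at least 4 in 88 of the 101, at least 4.5 in 71 and at least 4.8 in 36. The values of an array began at a floor of 2.12, and all 3 degenerative pools were under 3 in 1 member, which had no gene symbol. In the middle of the members the highest degenerative pool was at 4.68 and the second-highest blastocyst pool at 5.29, both medians over the 101. All 3 blastocyst pools were at the level in 35 members and 2 pools in 66. No overlap between degenerative and blastocyst pools was seen in 67 members, beside 8.93% of the 18937 probe sets with more than a single value that were lower in degenerative embryos without overlap. Nothing is read from that comparison, or from the 59 members at least 2-fold lower in degenerative embryos, beside 5.84% of all, because the rule selected on these values. The difference of the group means (degenerative minus blastocyst, as everywhere below) had a median of -1.16 over the members, from -3.92 to 0.28, beside 0.00 over all probe sets tested.

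**Figure D1:**
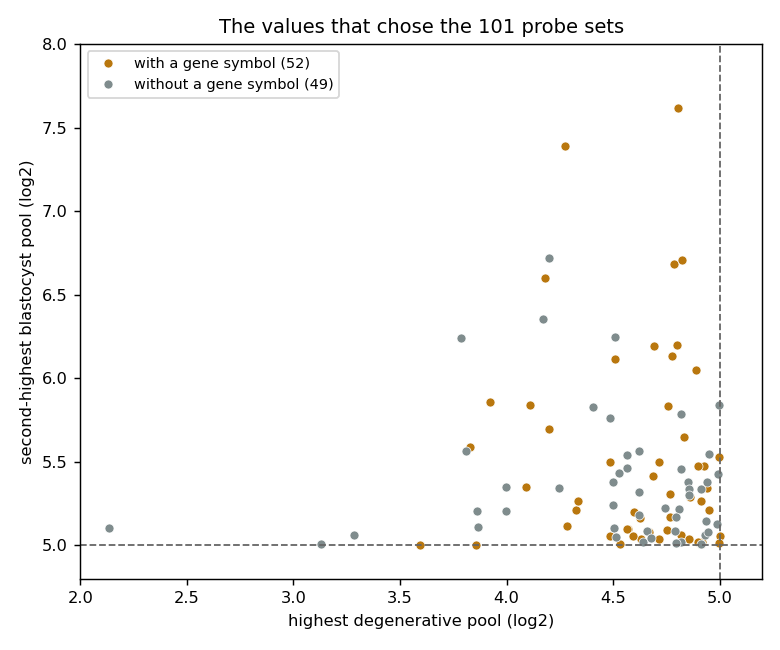
Each point is 1 of the 101 probe sets, with the log2 value of its highest degenerative pool on the horizontal axis and of its second-highest blastocyst pool on the vertical axis, and the dashed lines mark the level of 5. Most points crowd into the corner where both lines meet, with 71 members at 4.5 or more in a degenerative pool.

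At the level itself, CHRNE, a subunit of the muscle acetylcholine receptor, was at 3.84, 4.9998 and 4.84 in degenerative pools A, B and C, against 4.76, 5.06 and 5.67 in blastocyst pools A, B and C. Its degenerative pool B lay 0.00019 under the level. EIF2AK2 and NEIL2 were the next nearest on the inside, through blastocyst pools C at 5.002 and 5.004. Just outside, ALB, which encodes serum albumin, had 5.001, 5.001 and 4.74 in degenerative pools, against 5.001, 5.001 and 5.11 in blastocyst pools. MED20, a subunit of the Mediator complex, had 4.64, 4.85 and 4.85 in degenerative pools, against 4.85, 4.997 and 5.46 in blastocyst pools, and its blastocyst pool B was 0.0033 short of the level. POGK, a gene with a transposase-derived domain, had 2.98, 3.87 and 3.67 in degenerative pools, against 5.68, 4.995 and 4.34 in blastocyst pools, with blastocyst pool B 0.005 short. MED20 and POGK lay above all their degenerative pools in at least 2 blastocyst pools without being members.

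Among the 46 described genes the differences ran from -3.89 for GCA to -0.01 for TMEM218, with a median of -1.004. Of these, 23 were at least 2-fold lower in degenerative embryos and the other 23 less than that, 29 showed no overlap of the groups and 13 reached the level in all 3 blastocyst pools. They are taken below by function, with the values of pools A, B and C in that order.

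Transporters and receptors made up 5 members, with a median difference of -1.64. SLC52A3, a transporter that brings riboflavin into the cell, had 2.36, 3.83 and 3.02 in degenerative pools, against 5.96, 4.73 and 5.59 in blastocyst pools. The means were 3.07 ± 0.73 in degenerative embryos and 5.43 ± 0.63 in blastocysts (SD, n = 3 each), a difference of -2.35 with no overlap. SLCO2A1, which carries prostaglandins across the plasma membrane, had 3.03, 4.23 and 4.48 in degenerative pools, against 6.60, 5.47 and 5.50 in blastocyst pools. All 3 blastocyst pools thus lay about 1 or more above the highest degenerative pool, and the difference was -1.94. ATP6V0A2, a subunit of the proton pump that acidifies vesicles, had 4.20, 3.81 and 4.05 in degenerative pools, against 6.54, 5.70 and 4.75 in blastocyst pools. Its degenerative pools lay within 0.4 of each other and its blastocyst pools over 1.79, with pool C under the level. LPAR1, a receptor for lysophosphatidic acid, and CHRNE each differed by -0.60, and CHRNE overlapped.

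Among 3 genes of the cell surface and the secreted proteins, ADAM9 differed most. This membrane metalloprotease had 4.15, 4.42 and 4.51 in degenerative pools, against 8.87, 6.12 and 6.05 in blastocyst pools. The difference was -2.65, and -1.72 without blastocyst pool A, which stood 2.76 above the next blastocyst pool. TNFAIP6, a hyaluronan-binding protein known from the expanding cumulus around the oocyte, differed by -0.82, and CCL26, a chemokine, by -0.64. In both genes 1 blastocyst pool fell inside or below the degenerative range (pool B for TNFAIP6, at 3.78, and pool A for CCL26, at 3.82). CCL26 rested on blastocyst pool C, at 6.36, without which its difference was 0.01. The difference of TNFAIP6 was -0.21 without degenerative pool A.

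Calcium binding and the actin cytoskeleton gave 3 members, with GCA at their head. GCA encodes grancalcin, a calcium-binding protein described in human neutrophils, and had 2.12, 2.57 and 3.92 in degenerative pools, against 9.27, 5.18 and 5.85 in blastocyst pools. The mean was 2.87 ± 0.94 in degenerative embryos and 6.77 ± 2.19 in blastocysts (SD, n = 3 each), and degenerative pool A lay at the floor. The difference of -3.89 was -2.64 without blastocyst pool A. CNN2, a calponin that binds actin, had 2.58, 4.87 and 4.89 in degenerative pools, against 5.41, 6.42 and 6.05 in blastocyst pools. Degenerative pools B and C stood just under the level, and its difference of -1.85 was -1.08 without degenerative pool A. LCP1, a plastin that bundles actin, overlapped, with 2.93, 4.93 and 4.58 in degenerative pools, against 3.81, 5.47 and 5.76 in blastocyst pools. Its difference of -0.87 was -0.26 without degenerative pool A.

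Vesicle and nuclear traffic was represented by SNX7, TBC1D8 and IPO8. SNX7, a sorting nexin, had 4.71, 4.47 and 4.78 in degenerative pools, against 8.97, 5.59 and 6.13 in blastocyst pools. Every degenerative pool was thus within 0.6 of the level, and blastocyst pool A lay 2.84 above the next blastocyst pool. The difference was -2.24, and -1.20 without that pool. TBC1D8, of the family of Rab GTPase activators, and IPO8, an importin, differed by -0.38 and -0.48, and neither overlapped.

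In the synthesis and trimming of glycans, B4GALT6, a galactosyltransferase of glycolipids, had 4.32, 4.83 and 4.68 in degenerative pools, against 7.45, 5.65 and 5.44 in blastocyst pools. GCNT1, which begins a branch on O-glycans, had 4.06, 4.04 and 4.09 in degenerative pools, against 6.44, 5.35 and 4.78 in blastocyst pools. The degenerative pools of GCNT1 were nearly equal (SD 0.02, n = 3), and the differences were -1.57 for B4GALT6, -0.93 without blastocyst pool A, and -1.46 for GCNT1. GANAB, the catalytic subunit of glucosidase II, differed by -0.18 with overlapping groups.

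Metabolic enzymes and mitochondrial or folding proteins came to 3 members each. MMACHC, which processes cobalamin (vitamin B12) after uptake, had 2.98, 3.88 and 4.33 in degenerative pools, against 4.76, 5.21 and 5.32 in blastocyst pools, a difference of -1.37 without overlap. PKLR, a pyruvate kinase of liver and red cells, and HYI, a hydroxypyruvate isomerase, differed by -0.78 and -0.60. TMEM177, a mitochondrial membrane protein of cytochrome oxidase assembly, had 2.89, 4.49 and 3.70 in degenerative pools, against 4.71, 5.06 and 5.20 in blastocyst pools. In both MMACHC and TMEM177 blastocyst pool A was the lowest of its group and under the level. HSPA14, a chaperone of the Hsp70 family, and MAIP1, a protein of the mitochondrial matrix, differed by -0.99 and -0.80 and overlapped. Without blastocyst pool A the difference of HSPA14 was -0.44.

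RNA processing and translation gave 4 members, of which EIF2AK2 differed most. It encodes PKR, a kinase activated by double-stranded RNA that restrains translation, and had 2.12, 3.86 and 3.61 in degenerative pools, against 6.50, 4.93 and 5.002 in blastocyst pools. Blastocyst pool C passed the level by 0.0023 and pool B did not pass it, so the membership of EIF2AK2 turned on a value at the edge, while the groups lay more than 1 apart. TRNT1, which adds the CCA end to transfer RNAs, had 4.28, 3.72 and 4.04 in degenerative pools, against 7.50, 4.22 and 5.11 in blastocyst pools. Its groups overlapped, and the difference of -1.60 was -0.66 without blastocyst pool A. DUS4L, a dihydrouridine synthase of transfer RNAs, had 4.85, 3.81 and 4.86 in degenerative pools, against 6.97, 5.05 and 5.29 in blastocyst pools. Its difference of -1.26 was also -0.66 without blastocyst pool A. ERI2, of an exoribonuclease family, differed by -0.77, and by -0.22 without degenerative pool A.

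NEIL2, a glycosylase that starts base excision repair, led the 3 genes of DNA repair, with 2.12, 3.59 and 3.59 in degenerative pools, against 5.31, 4.35 and 5.004 in blastocyst pools. Degenerative pool A lay at the floor, the groups did not overlap and the difference was -1.79. FAAP24, of the Fanconi anemia core complex, differed by -0.63 and ERCC6L2, a helicase-like repair protein, by -0.51.

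Transcription and chromatin was the largest group, with 8 members and a median difference of -0.78. MEG3, an imprinted long noncoding RNA expressed from the maternal allele, led it with 4.69, 3.27 and 3.87 in degenerative pools, against 7.20, 4.81 and 6.19 in blastocyst pools. The groups were separate and the difference was -2.12. ASCL2, an imprinted factor that maintains trophoblast progenitors in the mouse, had 4.04, 4.20 and 4.34 in degenerative pools, against 5.42, 5.27 and 4.34 in blastocyst pools. Blastocyst pool C of ASCL2 had exactly the value of degenerative pool C, and the difference was -0.82. KLF11, a zinc finger factor, differed by -0.93, ZNF184 and ZMYM5, both zinc finger proteins, by -0.75 and -1.02, TRIM27, a ubiquitin ligase, by -0.57 and FAM120B, a coactivator of PPAR gamma, by -0.52. RARA, a receptor for retinoic acid, had 4.55, 4.996 and 4.996 in degenerative pools, against 5.01, 4.996 and 5.13 in blastocyst pools, and 4 of these 6 values were within 0.02 of the level.

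Signaling had 3 members. PPP2R5B, a regulatory subunit of protein phosphatase 2A, had 2.12, 2.81 and 4.11 in degenerative pools, against 6.33, 2.84 and 5.84 in blastocyst pools. Blastocyst pool B was nearly at degenerative pool B, so the groups overlapped, and the difference of -1.99 was -3.07 without it and -1.33 without blastocyst pool A. RGCC, a regulator of the cell cycle, had 2.30, 4.71 and 4.66 in degenerative pools, against 4.29, 5.60 and 5.04 in blastocyst pools. Its difference of -1.09 was -0.29 without degenerative pool A. RPS6KC1, a relative of the ribosomal S6 kinases, differed by -0.78.

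The remaining 5 genes have no assigned function. LOC613444 had 4.78, 4.66 and 4.73 in degenerative pools, against 8.17, 6.14 and 6.69 in blastocyst pools, a difference of -2.27. SMIM19, a small membrane protein, had 4.45, 4.60 and 3.85 in degenerative pools, against 6.79, 4.89 and 5.20 in blastocyst pools, and TMEM234 had 3.28, 4.94 and 4.12 in degenerative pools, against 5.50, 5.33 and 5.34 in blastocyst pools. All 3 were free of overlap, and the blastocyst pools of TMEM234 were within 0.2 of each other. LOC100138449 differed by -1.13 and TMEM218, another membrane protein, by -0.01.

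**Figure D2:**
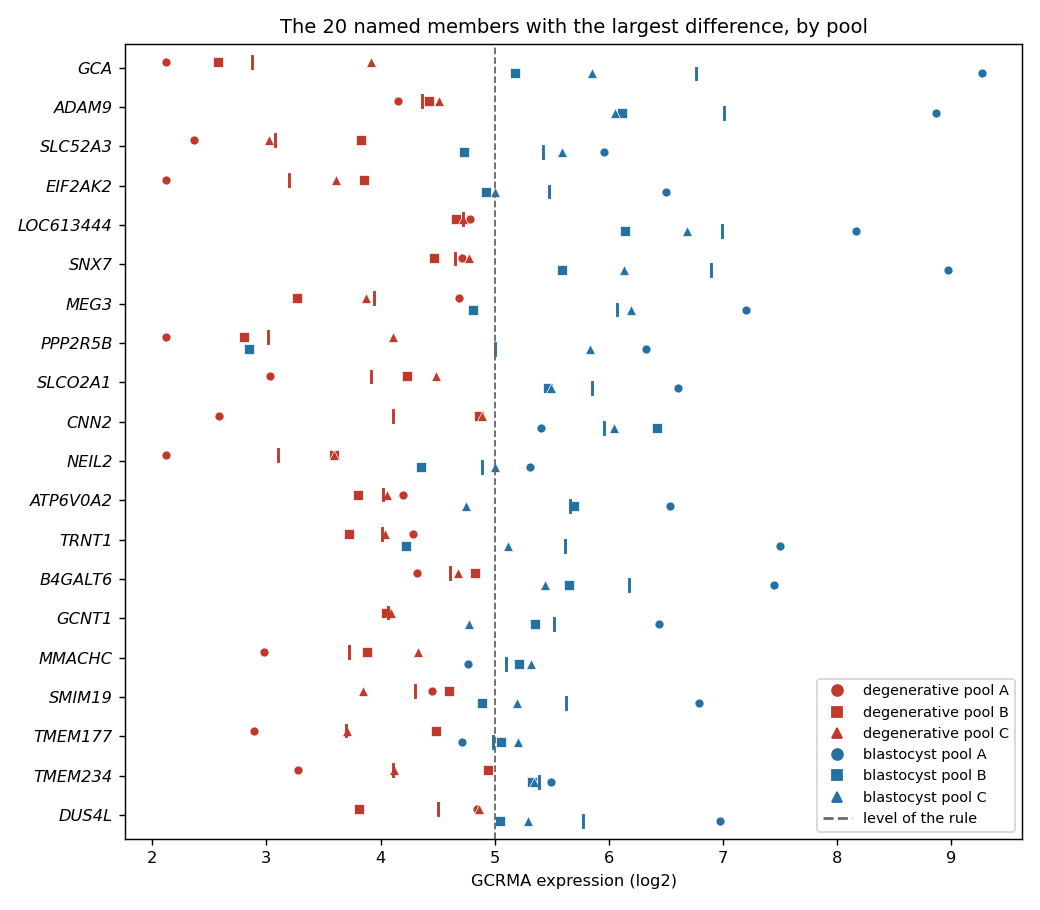
Log2 expression of the 20 described members with the largest difference of group means, 1 row a gene, with degenerative pools in red (upper points) and blastocyst pools in blue (lower points); symbols give the pool letter, short vertical bars the group means and the dashed line the level of 5. Blastocyst pool A is the highest blastocyst pool in 17 of the 20, and the groups overlap in PPP2R5B and TRNT1.

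The probe sets were chosen one by one, and many of the genes had others on the array that the rule did not select. These measured the same contrast in the same pools and are described without a test. Of the 46 genes, 25 had 34 other probe sets, and none of these met the rule. In 20 of the 25 genes (80%) another probe set was at or above 5 in at least 2 degenerative pools. That was so for 47.5% of the 3327 other probe sets under 5 in all degenerative pools whose gene had several probe sets, and for 66.2% of the 269 of them with a degenerative pool of at least 4. Under the exchanged rule, 44.7% of the 47 genes with several probe sets had another at or above 5 in at least 2 blastocyst pools. The name of the group, transcripts detected only in blastocysts, therefore stands only for where these probe sets lay against the level of 5. That level is no call of presence. The name does not hold for most of their genes where a second probe set exists. The other 26 genes had no other probe set at the level.

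Of the 25 other probe sets at the level in at least 2 degenerative pools, 22 were at it in all 3. Within these 25, 9 from 6 genes were at least 2-fold lower in degenerative embryos, 3 were lower by 0.5 to 1 and 13 differed by less than 0.5. These 13 include 5 with a higher mean in degenerative embryos, of which EIF2AK2 (0.0009) and ZMYM5 (0.01) hardly differed. The 6 genes were GCA, ADAM9, MEG3, CNN2, GCNT1 and LOC613444, the last with 1 other probe set at -1.01 and 1 at -0.96. The other probe sets of GCA had 7.57, 7.39 and 9.10 in degenerative pools, against 12.67, 9.88 and 10.23 in blastocyst pools for the first, a difference of -2.91. The second had 4.19, 6.51 and 7.17 in degenerative pools, against 7.56, 8.56 and 8.54 in blastocyst pools, a difference of -2.26. Both showed separate groups, with degenerative pool A of the second under the level. ADAM9 had an other probe set at the level, with 9.54, 9.78 and 10.31 in degenerative pools, against 12.01, 11.52 and 11.17 in blastocyst pools. Its remaining probe set, at the level in degenerative pool C only, had 3.44, 3.82 and 6.16 in degenerative pools, against 8.003, 6.01 and 6.43 in blastocyst pools. The groups were separate in the first of these and overlapped in the second. MEG3 had 3 others at the level, with differences of -2.91, -2.19 and -1.25, and the separate groups of its member probe set recurred in each of them. CNN2 had 5.06, 7.21 and 7.24 in degenerative pools, against 7.87, 8.91 and 8.53 in blastocyst pools, with degenerative pool A again the lowest. GCNT1 had 10.07, 10.07 and 10.58 in degenerative pools, against 11.67, 11.44 and 11.47 in blastocyst pools, a difference of -1.28.

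Other genes had a second probe set with a smaller difference or none. EIF2AK2 had 5.84, 5.68 and 5.77 in degenerative pools, against 5.78, 5.78 and 5.72 in blastocyst pools. SNX7 had 11.27, 10.71 and 10.73 in degenerative pools, against 11.55, 11.04 and 11.25 in blastocyst pools, a difference of -0.37 beside -2.24 in its member. ATP6V0A2, SMIM19, ZMYM5, IPO8 and GANAB had others with differences between -0.30 and 0.01, all of them at 7 or more in every degenerative pool. That of SMIM19 had separate groups, with 10.44, 10.50 and 10.32 in degenerative pools, against 10.71, 10.72 and 10.71 in blastocyst pools. HSPA14, FAAP24 and LOC100138449 had others higher in degenerative embryos, by 0.17, 0.23 and 0.30. Between these stood DUS4L, HYI and RARA, with differences of -0.67, -0.49 and -0.21, and KLF11, with 1 other at -0.39 and 1 at -0.89. Which transcripts each probe set reaches was not tested. GCA is measured by a probe set of the kind that can match several transcripts (suffix _s_at), and over all members 7 had the suffix _a_at, 2 _s_at and 1 _x_at.

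**Figure D3:**
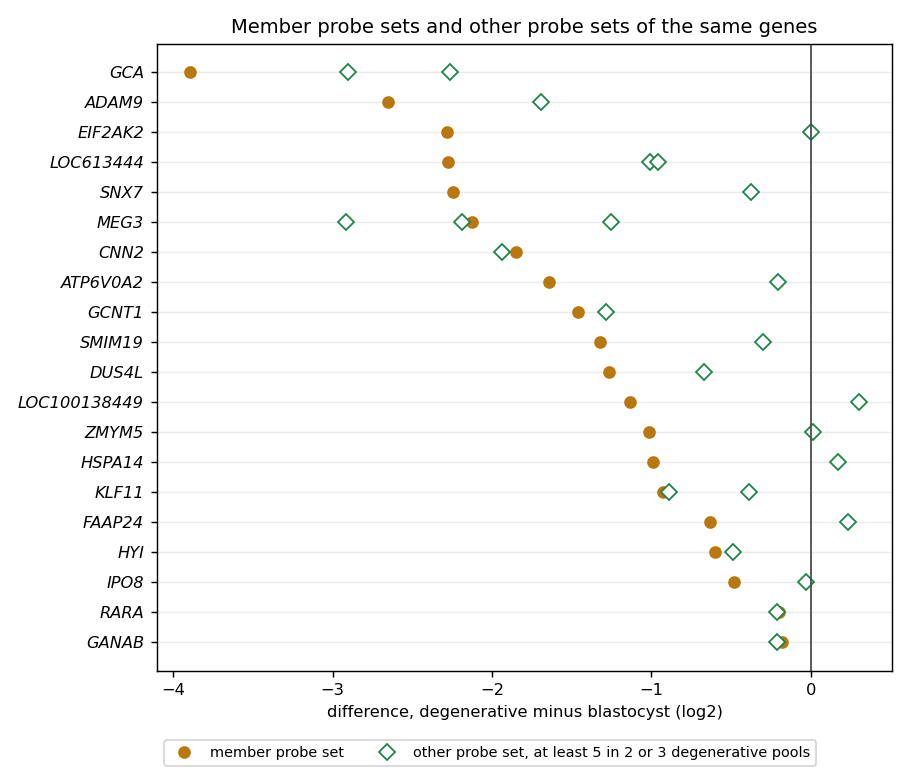
Difference of group means (degenerative minus blastocyst, log2) of the member probe set (filled circles) and of other probe sets of the same gene that were at 5 or more in at least 2 degenerative pools (open diamonds), for the 20 genes that have one. In GCA, ADAM9, MEG3, CNN2, GCNT1 and LOC613444 both kinds lie to the left of the line at 0, and the diamonds of EIF2AK2, ZMYM5 and IPO8 lie near it.

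The 49 members without a symbol were followed through the cluster number in their identifiers. Of these, 21 shared it with another probe set, and in 13 that probe set was at the level in at least 2 degenerative pools. The unnamed member with the largest difference (-3.65) had 2.20, 4.51 and 3.59 in degenerative pools, against 9.31, 5.70 and 6.25 in blastocyst pools, and the other probe set of its cluster had 6.35, 8.99 and 8.45 in degenerative pools, against 11.11, 10.26 and 10.10 in blastocyst pools. Both showed separate groups at different heights of the scale. For another unnamed member, with a difference of 0.16, the second probe set of its cluster lay at 9.40, 9.02 and 9.05 in degenerative pools, against 8.69, 8.71 and 9.10 in blastocyst pools.

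Among the members, blastocyst pool A was most often the highest of its group and degenerative pool A the lowest. Blastocyst pool A was the highest of its group in 58 of the 101 (57.4%), beside 44.4% of all probe sets tested, and degenerative pool A was the lowest of its group in 60 (59.4%), beside 47.9%. A tie was counted for the first of the tied letters, and 32.8% of all probe sets tested held equal values in some pools. Such ties raise the shares of the A pools, to an extent that was not measured. Among the 4180 probe sets whose blastocyst mean lay between the lowest and highest of the members these shares were 35.4% and 43.9%. There blastocyst pool C was the highest of its group in 35.5%. Taken within a letter, the difference of the members had a median of -1.98 in A, -0.89 in B and -0.85 in C, beside 0 for each letter over all probe sets tested. The rule fixes the direction of these medians, and it selected on the same values that give the shares of the members, so nothing is read from either. Of the 46 described genes, 25 changed their difference by more than 1.5 times when some 1 pool was left out, 14 of them without blastocyst pool A and 10 without degenerative pool A. Without blastocyst pool A the difference shrank in 10 of the 14. It grew in CCL26 (-1.26), LCP1 (-1.47), GANAB (-0.46) and TMEM218 (-0.29). Beside the values given above, the difference without blastocyst pool A was -0.74 for SMIM19, -0.33 for TRIM27, -0.33 for ERCC6L2 and -0.25 for IPO8. Without degenerative pool A it was -0.50 for ZMYM5, -0.37 for PKLR, -0.24 for CHRNE and -0.05 for RARA. MAIP1 moved to -0.51 without degenerative pool B and FAM120B to -0.32 without degenerative pool C. GANAB was at -0.02 without blastocyst pool C, and TMEM218 turned to 0.17 without blastocyst pool B.

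**Figure D4:**
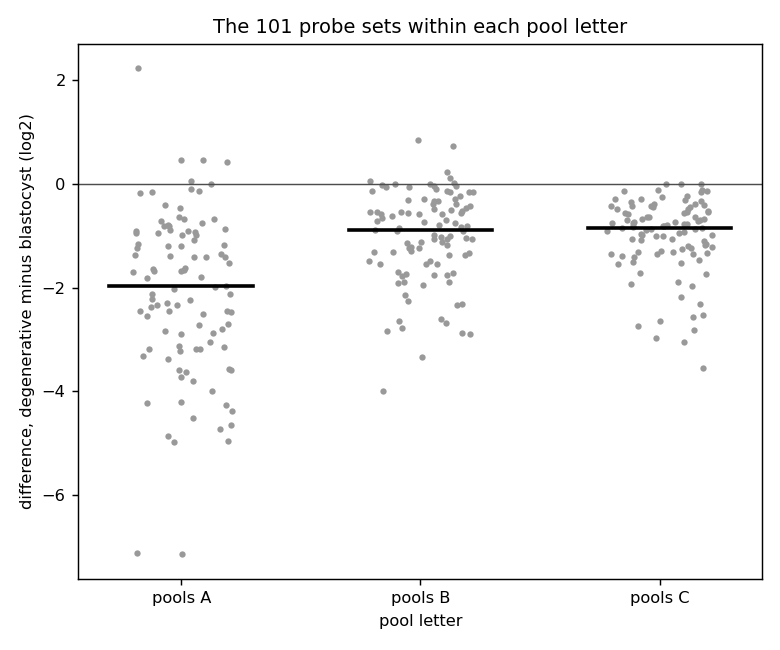
Difference (degenerative minus blastocyst, log2) of the 101 probe sets taken within pools A, within pools B and within pools C, with 1 gray point a probe set spread sideways for legibility and the black bar at the median. The medians are -1.98, -0.89 and -0.85.

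The array has control probe sets for the 5' and 3' ends of 4 transcripts, and blastocyst pool A had the smallest gap between the ends in all 4. For eIF-4E the 3' end exceeded the 5' end by 9.87, 9.80 and 9.13 in degenerative pools A, B and C, against 6.60, 8.59 and 8.36 in blastocyst pools, with the largest gap in degenerative pool A. Its 5' end was at 2.64, 2.56 and 3.70 in degenerative pools, near the floor of 2.12, against 6.56, 4.42 and 4.66 in blastocyst pools. The floor therefore limits the eIF-4E gaps of degenerative pools. For EF1a the gap was 0.83, 0.70 and 0.52 in degenerative pools, against -1.65, 0.87 and -0.35 in blastocyst pools. For GAPDH it was 2.51, 2.52 and 2.48 in degenerative pools, against 1.83, 2.89 and 2.57 in blastocyst pools. For cyclophilin it was 2.52, 3.22 and 2.76 in degenerative pools, against 2.13, 2.72 and 2.54 in blastocyst pools, so degenerative pool A had the largest gap of all pools for eIF-4E alone. The part of these gaps in the members' values was not tested.

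Some members held the very same value in several pools. Values equal to 5 decimals in 2 or more pools were found in 16 members (15.8%), beside 32.8% of all probe sets tested, and in 14 of the 16 the shared value was at least 4. RARA had 4.99561 in degenerative pools B and C and in blastocyst pool B, which is 0.0044 under the level that chose it.

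In the limma fit over all 18937 probe sets, 3 were lower in degenerative embryos (0.0158%) and 1 was higher (0.00528%) at an adjusted p of at most 0.15, and 0 members were among them. The study itself used SAM, a permutation method, at the same rate. Its list of changes of at least 2-fold held members, among them SLC10A1 and MCF2L. The count of 0 therefore belongs to the limma fit alone. An unadjusted p under 0.05 was found for 53 members and 1631 probe sets, counts from which nothing is read, since the members were selected on this contrast.

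Gene families and pathways around the members were counted over lists chosen with earlier results of these data known. Solute carriers with an SLC symbol held 3 members of 261 probe sets, SLC10A1, SLC52A3 and SLCO2A1, and genes with a TMEM symbol 3 of 169, beside 0.421% of all probe sets. The CYP symbols held 1 member of 39 and the ZNF symbols 1 of 116, and the ABC, KCN, ARHG, RAB, COL and FABP symbols held 0. Of the marker genes only TNFAIP6, of the cumulus list, was a member. That list had 4 genes lower and 5 higher in degenerative embryos of 9 tested, with a summed level on the linear scale of 1941 to 4111 in degenerative pools, against 1387 to 2054 in blastocyst pools. The list of blastocoel fluid transport had 6 of 8 tested genes lower and 2 higher in degenerative embryos, and junction genes 8 lower and 9 higher of 17, with median differences of -0.24 and 0.00, beside 0.02 over the 8189 genes tested. None of them passed limma, and 4 and 2 had an unadjusted p under 0.05.

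Steroid and sterol enzymes were lower in 12 of 14 genes, with a median of -0.97 and 0 calls by limma beside 9 with an unadjusted p under 0.05. CYP51A1, a demethylase of cholesterol synthesis, had 11.71, 11.94 and 11.77 in degenerative pools, against 14.13, 13.32 and 13.36 in blastocyst pools. The probe set with the highest mean was at the level in at least 2 pools of each group for all 14 genes, from CYP51A1 far above it to LSS, lanosterol synthase, at 5.93, 5.83 and 6.50 in degenerative pools, against 7.31, 6.79 and 6.50 in blastocyst pools. None of these 14 probe sets was a member. HMGCS1, a sterol synthesis gene among the members set aside, was not on this list. CYP19A1, the aromatase of the cumulus and granulosa list, had 2.62, 2.55 and 2.75 in degenerative pools, against 2.60, 4.87 and 6.69 in blastocyst pools, and missed the rule because only blastocyst pool C reached 5. SLC9A3, a sodium and proton exchanger, had 7.35, 6.17 and 6.12 in degenerative pools, against 9.18, 8.30 and 7.78 in blastocyst pools. It was the furthest lower gene of the fluid transport list. The 2 higher genes of that list, AQP3 (0.91) and SLC12A2 (0.89), also showed no overlap.

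The 46 described genes were spread over 22 chromosomes in the ARS-UCD2.0 annotation, with at most 5 on a chromosome. Chromosome 2 held GCA, MAIP1, TMEM177, TMEM234 and TNFAIP6. The nearest pair, ADAM9 and SMIM19 on chromosome 27, had 25 coding genes between them, and LCP1 and RGCC on chromosome 12 had 27.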

How the data were processed

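RNA from 3 pools of late degenerative embryos and 3 of blastocysts, with 20 embryos a pool, was measured on the Affymetrix Bovine Genome Array. The authors deposited log2 values per probe set made with GCRMA 2.14.1, as their processing notes state, a method that subtracts a background modeled on each probe's bases, gives all arrays a common distribution and combines the probes into 1 value. Detection calls were not used here, so the level of 5 is a value and no call of presence. Arrays have no depth, and their number limits the precision.

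Probe sets were chosen by the level of 5 in at least 2 blastocyst pools and no degenerative pool, leaving out 20 controls. The members and the gene lists were chosen with earlier results of these data known, and functions were assigned after the members were seen. Since the rule used the contrast, members got no test. The 18937 probe sets with more than 1 value were fitted with limma 3.58.1 in R 4.3.3 (Benjamini-Hochberg, adjusted p of at most 0.15, the rate of the methods), checked on simulated data. limma replaced the SAM of the methods because no relabelings of pools were run. Pools were separate sets of embryos from several cows and bulls each, and by the numbers in the methods any pair of pools shared a bull at least, so the p-values rest on pools that are not fully independent. Gene symbols came from the platform annotation, with chromosomes from the RefSeq table of ARS-UCD2.0. Lists used 1 probe set a gene, that with the highest mean.

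Pool values were named for the 20 described members with the largest difference, the leader of each function, and the 3 probe sets nearest the level on each side. Other genes were named after their values were seen. The planned promoter search was not run, because no sequences were at hand. Deviations from group means correlated at 0.373, 0.180 and 0.275 between pools of the letters A, B and C, but degenerative pool B correlated more with blastocyst pool C (0.374). The labels do not say what a letter marks. An alternative fit took the letters as pairs. Other levels, pools, scaling and filters were also tried.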

Additional observations from a re-analysis of the deposited data

How the results depend on the processing

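A level of 4 gave 86 members and a level of 6 gave 135, of which 13 and 14 were among the 101. Requiring all 3 pools gave 35 members and 30 under the exchanged rule, and centring the arrays on their medians gave 88 members, 85 of them shared. Leaving out 1 pool gave 51 to 188 members, with the fewest without blastocyst pool A and the most without degenerative pool C, and 56 to 307 under the exchanged rule. The rule itself fixes the direction here. Leaving out a degenerative pool can only add members and leaving out a blastocyst pool can only remove them, and the reverse holds for the exchanged rule. With both A pools left out, chosen after seeing the data, 88 and 102 remained in number, 51 of the 88 shared with the members. Limma called 4 probe sets, 0 with the pool letter as a replicate block, 1 with centred arrays, 1 after a filter on dim probe sets and 0 with a trend in the prior variance. Without 1 pool it called 1 to 42, the most without degenerative pool A. Apart from that effect of the rule on the counts of members, the cause of these shifts was not tested. For the differences of the 20 named members, chosen on these same values, 40 of 220 alternatives moved the value by more than the spread between pools, 16 of them within the A pools. Leaving out 1 pool moved 0, because with 3 pools a group it shifts a mean by less than that spread. Centring the arrays also moved 0. The 40 of 220 are therefore no measure of how firm the differences were. On each array 27.4% to 28.6% of all values were within 0.01 of the floor.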
